A study of Mus musculus with 56 samples.

Results

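Lcn2, Lcn5, Lcn6, Lcn8, Lcn9, Lcn10, Lcn12 and Ptgds, the lipocalin genes known from the epididymis, were followed along the male reproductive tract of adult and aged mice. They were chosen by name from the 53379 genes of the count table, and all 8 were found there. The animals were male C57BL/6 mice of 3 months and 21 months, with no treatment or engineered allele named, so the groups were defined by region and age. The methods name 2 animal sources without tying them to an age. Bulk total RNA was sequenced from 7 regions, in order the testis, the efferent ductules, 4 stretches of the epididymis (initial segment, then caput, then corpus, then cauda) and the vas deferens, in 4 libraries per age, which gave 56 libraries in 14 groups. The methods describe 4 mice per age and all regions taken from the same mouse, so the libraries of different regions share animals, while no label ties a library number to a mouse. The libraries held 11125279 to 20561967 counts, with a median of 16384049. Levels are CPM, counts relative to the TMM-scaled library size, as mean ± SD of 4 libraries, and a level per kilobase divides them by the exon length of the gene. By their highest mean at 3 months, 7 of 8 initial segment markers, 7 of 8 efferent ductule markers, 5 of 8 caput markers, 5 of 8 corpus and cauda markers and 3 of 8 vas deferens markers peaked in the region they were listed for. In bulk tissue, fewer cells of a type and less RNA per cell cannot be told apart.

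Lipocalins are small secreted proteins whose barrel-shaped fold carries hydrophobic ligands such as retinoids, steroids and lipids. Most epididymal lipocalins are made by principal cells and released into the lumen, where maturing sperm meet them. Lcn5 encodes the epididymal retinoic acid-binding protein, and Lcn8 is its close relative. Ptgds encodes lipocalin-type prostaglandin D synthase, which is both an enzyme and a lipid carrier. Lcn2 encodes neutrophil gelatinase-associated lipocalin, which binds the siderophores with which bacteria capture iron and is made by neutrophils and by many epithelia under inflammation.

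In the mouse genome (GRCm38) 7 of the 8 genes lay within 358.829 kb of chromosome 2. From one end of this cluster to the other these were Ptgds (ENSMUSG00000015090, chr2:25466709-25470046, minus strand), Lcn12 (ENSMUSG00000026943, chr2:25490845-25493911, minus strand), Lcn8 (ENSMUSG00000036449, chr2:25653120-25656217, plus strand), Lcn5 (ENSMUSG00000026937, chr2:25657952-25661977, plus strand), Lcn6 (ENSMUSG00000045684, chr2:25676786-25681608, plus strand), Lcn10 (ENSMUSG00000047356, chr2:25682726-25686081, plus strand) and Lcn9 (ENSMUSG00000023210, chr2:25823153-25825537, plus strand). Lcn2 (ENSMUSG00000026822, chr2:32384633-32388252, minus strand) lay 6559.1 kb beyond Lcn9. Lcn8 ended 1734 bases before Lcn5, and Lcn6 ended 1117 bases before Lcn10. No annotated gene overlapped any of the 8.

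The promoters of Lcn8, Lcn9, Lcn10 and Lcn6, whose transcripts shared the initial segment and caput, and of Lcn5, which was measured almost entirely in the caput, are shown as the RefSeq windows of 250 bases before to 50 bases after the annotated start (GRCm38.p6, plus strand, 5′ to 3′). The windows were chr2:25652868-25653167 for Lcn8, chr2:25822903-25823202 for Lcn9, chr2:25682476-25682775 for Lcn10, chr2:25676536-25676835 for Lcn6 and chr2:25657702-25658001 for Lcn5. Capitals mark matches to the motifs searched.
Lcn8: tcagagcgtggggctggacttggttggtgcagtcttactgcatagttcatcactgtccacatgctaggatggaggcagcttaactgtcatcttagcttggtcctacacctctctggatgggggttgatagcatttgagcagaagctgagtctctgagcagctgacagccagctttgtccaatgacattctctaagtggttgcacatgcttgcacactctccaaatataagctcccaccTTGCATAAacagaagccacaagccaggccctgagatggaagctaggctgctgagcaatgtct
Lcn9: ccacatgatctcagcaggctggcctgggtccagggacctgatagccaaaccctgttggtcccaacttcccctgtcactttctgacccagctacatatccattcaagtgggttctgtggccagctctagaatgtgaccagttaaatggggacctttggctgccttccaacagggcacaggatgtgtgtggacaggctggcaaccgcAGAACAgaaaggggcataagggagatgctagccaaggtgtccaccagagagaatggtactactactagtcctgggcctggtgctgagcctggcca
Lcn10: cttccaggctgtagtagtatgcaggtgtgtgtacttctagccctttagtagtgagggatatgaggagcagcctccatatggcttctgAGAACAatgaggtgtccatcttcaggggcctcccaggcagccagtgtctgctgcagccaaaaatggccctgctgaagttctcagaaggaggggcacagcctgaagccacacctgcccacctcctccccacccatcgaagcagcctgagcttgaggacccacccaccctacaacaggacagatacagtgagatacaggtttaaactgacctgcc
Lcn6: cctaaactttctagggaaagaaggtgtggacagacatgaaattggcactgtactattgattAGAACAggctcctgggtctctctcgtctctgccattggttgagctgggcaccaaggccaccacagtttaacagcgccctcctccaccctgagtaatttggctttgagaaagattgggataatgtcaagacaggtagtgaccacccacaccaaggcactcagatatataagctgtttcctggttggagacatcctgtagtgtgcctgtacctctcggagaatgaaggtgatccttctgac
Lcn5: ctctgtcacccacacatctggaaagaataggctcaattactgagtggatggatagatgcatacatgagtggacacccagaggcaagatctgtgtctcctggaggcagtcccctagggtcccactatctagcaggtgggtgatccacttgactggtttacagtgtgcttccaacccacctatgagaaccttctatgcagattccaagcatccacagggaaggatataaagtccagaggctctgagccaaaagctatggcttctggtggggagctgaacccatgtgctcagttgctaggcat

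The letters searched on both strands were TGTTCT (the androgen and glucocorticoid receptor half-site), TGTTTAC (forkhead), AGGAAG (ETS), TTGCNNAA (C/EBP) and the NF-kB consensus. The receptor half-site was in 4 of the 8 member windows, each time as AGAACA on the strand of the gene, and in 19.0% of all 32851 windows of this length. It began 203 bases before the start of Lcn12, 189 before Lcn6, 163 before Lcn10 and 45 before Lcn9. A C/EBP match was in the windows of Lcn8 and Lcn2, against 10.8% of all windows, and in Lcn8 it began 12 bases before the start. Lcn2 alone among the members held an ETS match, a motif found in 35.4% of all windows. No member window held the forkhead letters (3.65% of all windows) or the NF-kB consensus (5.78%). These matches describe the letters of the windows, not bound sites.

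Lcn8, Lcn9 and Lcn10 were transcripts of the initial segment. At 3 months Lcn8 read 8514, 7628, 8434 and 6928 CPM in the 4 initial segment libraries. Lcn9 read 6252, 6771, 6022 and 5090 CPM there. Lcn10 read 1255, 1278, 1277 and 1321 CPM, the closest agreement between libraries of the 3 genes. All 3 were lower in the caput, where the means were 576 ± 264 CPM for Lcn8, 388 ± 227 CPM for Lcn9 and 201 ± 96.3 CPM for Lcn10. The initial segment and caput libraries did not overlap for any of the 3, and the fitted log2 differences were -3.69 ± 0.30 (SE) for Lcn8, -3.88 ± 0.38 for Lcn9 and -2.59 ± 0.25 for Lcn10 (edgeR, adjusted p = 4.95e-11, 5.98e-09 and 1.79e-08). At this border 27.8% of all genes passed, and the share of all genes without overlap was not counted. In the corpus of 3-month-old mice only a few counts were left, most of them in library 1, which held 23 of 29 counts of Lcn8, all 22 of Lcn9 and all 4 of Lcn10. Lcn9 and Lcn10 had no count in any vas deferens library at 3 months, which put the initial segment at least 152176-fold and 32350-fold higher against a floor of 3 counts over the group. The initial segment and caput together held 99.98% of the summed regional means of Lcn8 and Lcn9 and 99.99% of those of Lcn10 at 3 months.

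Lcn6, whose product has been described on the sperm surface, shared the same pair of regions but at a lower and flatter level. It read 124, 135, 166 and 223 CPM in the initial segment and 127, 65.2, 135 and 58.0 CPM in the caput of 3-month-old mice, and these ranges overlapped. The difference passed the test by a narrow margin (log2 -0.67 ± 0.25, edgeR, adjusted p = 0.0415). At 21 months the order of the means turned, with 85.5 ± 12.0 CPM in the initial segment and 116 ± 15.7 CPM in the caput, the libraries no longer overlapped, and the difference did not pass (log2 0.34 ± 0.36, edgeR, adjusted p = 0.537). The change of the initial segment to caput difference with age did not pass its own test (edgeR, adjusted p = 0.125). The testis held no Lcn6 count in any of its 8 libraries.

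Lcn5 had the largest share of its summed means in a single region of the 8 genes. The caput libraries read 4389, 4804, 3826 and 5469 CPM at 3 months, and the initial segment next in order read 25.6, 34.5, 24.3 and 48.5 CPM. The caput held 99.0% of the summed regional means at 3 months and 99.3% at 21 months, and the log2 difference from the initial segment was 7.21 ± 0.74 at 3 months (edgeR, adjusted p = 1.23e-08). Its neighbour Lcn8, 1734 bases away, had the opposite order of the same 2 regions. Lcn5 stood at 7.31 ± 6.57 CPM in the corpus, with single libraries from 0.541 to 14.7 CPM, and at 2.58 ± 2.99 CPM in the cauda. Those 2 regions did not differ beyond their spread (edgeR, adjusted p = 0.148). No testis library of 3 months held an Lcn5 count.

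Lcn12 had 2 high regions separated by a lower one. It read 230, 226, 219 and 218 CPM in the caput, 61.3, 74.7, 65.3 and 66.9 CPM in the corpus and 178, 189, 116 and 197 CPM in the cauda at 3 months. The corpus lay below both neighbours without overlap, by log2 -1.83 ± 0.32 from the caput (edgeR, adjusted p = 2.65e-05) and 1.27 ± 0.31 up to the cauda (edgeR, adjusted p = 0.00260). The difference between caput and cauda did not pass (edgeR, adjusted p = 0.159), although the lowest caput library (218 CPM) lay above the highest cauda library (197 CPM). The same dip was measured at 21 months, with 228 ± 23.8, 82.0 ± 5.0 and 166 ± 14.7 CPM.

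Ptgds rose from the caput onward. At 3 months it stood at 627 ± 149 CPM in the caput, 1757 ± 267 CPM in the corpus and 2581 ± 907 CPM in the cauda. The step from caput to corpus passed the test (log2 1.40 ± 0.28, edgeR, adjusted p = 0.000195), and the step from corpus to cauda did not (0.48 ± 0.28, adjusted p = 0.242). At 21 months both steps passed (1.48 ± 0.25, adjusted p = 2.65e-05, and 0.70 ± 0.25, adjusted p = 0.0363). One of the cauda libraries of 3 months read 1273 CPM against 2822 to 3369 CPM in the others, and this library also held 3793 CPM of summed macrophage markers against 487 to 519 CPM in the others. Its low Lcn12 value, 116 CPM, and its low Lcn2 value, 52.0 CPM, came from the same library, and the part of the macrophage transcripts in these values was not tested. The vas deferens, directly after the cauda, held only 7.25 ± 1.92 CPM of Ptgds at 3 months, a log2 difference of -8.32 ± 0.39 (edgeR, adjusted p = 1.12e-16). Upstream, Ptgds was measured in the testis (136 ± 17.8 CPM) and the efferent ductules (82.3 ± 8.53 CPM).

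Lcn2 was the only member above 10 CPM in every region and at both ages. Its level was highest in the initial segment, where the 3-month libraries read 5170, 4867, 4958 and 5410 CPM. The caput followed with 1249 ± 384 CPM, the efferent ductules with 611 ± 43.2 CPM and the testis with 156 ± 8.01 CPM, and each of these steps passed the test (edgeR, adjusted p = 3.36e-08, 4.55e-05 and 1.67e-09). The cauda (95.7 ± 34.0 CPM) and the corpus (76.7 ± 6.41 CPM) were not separated (edgeR, adjusted p = 0.476), and the vas deferens was lowest (26.8 ± 9.90 CPM). The summed level of 10 neutrophil markers was at most 0.387 CPM in the 3-month initial segment libraries, with Ly6g, Elane, Mpo and Cxcr2 at 0, where Lcn2 was at its highest. The cells from which the Lcn2 transcripts came were not tested.

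**Figure D1:**
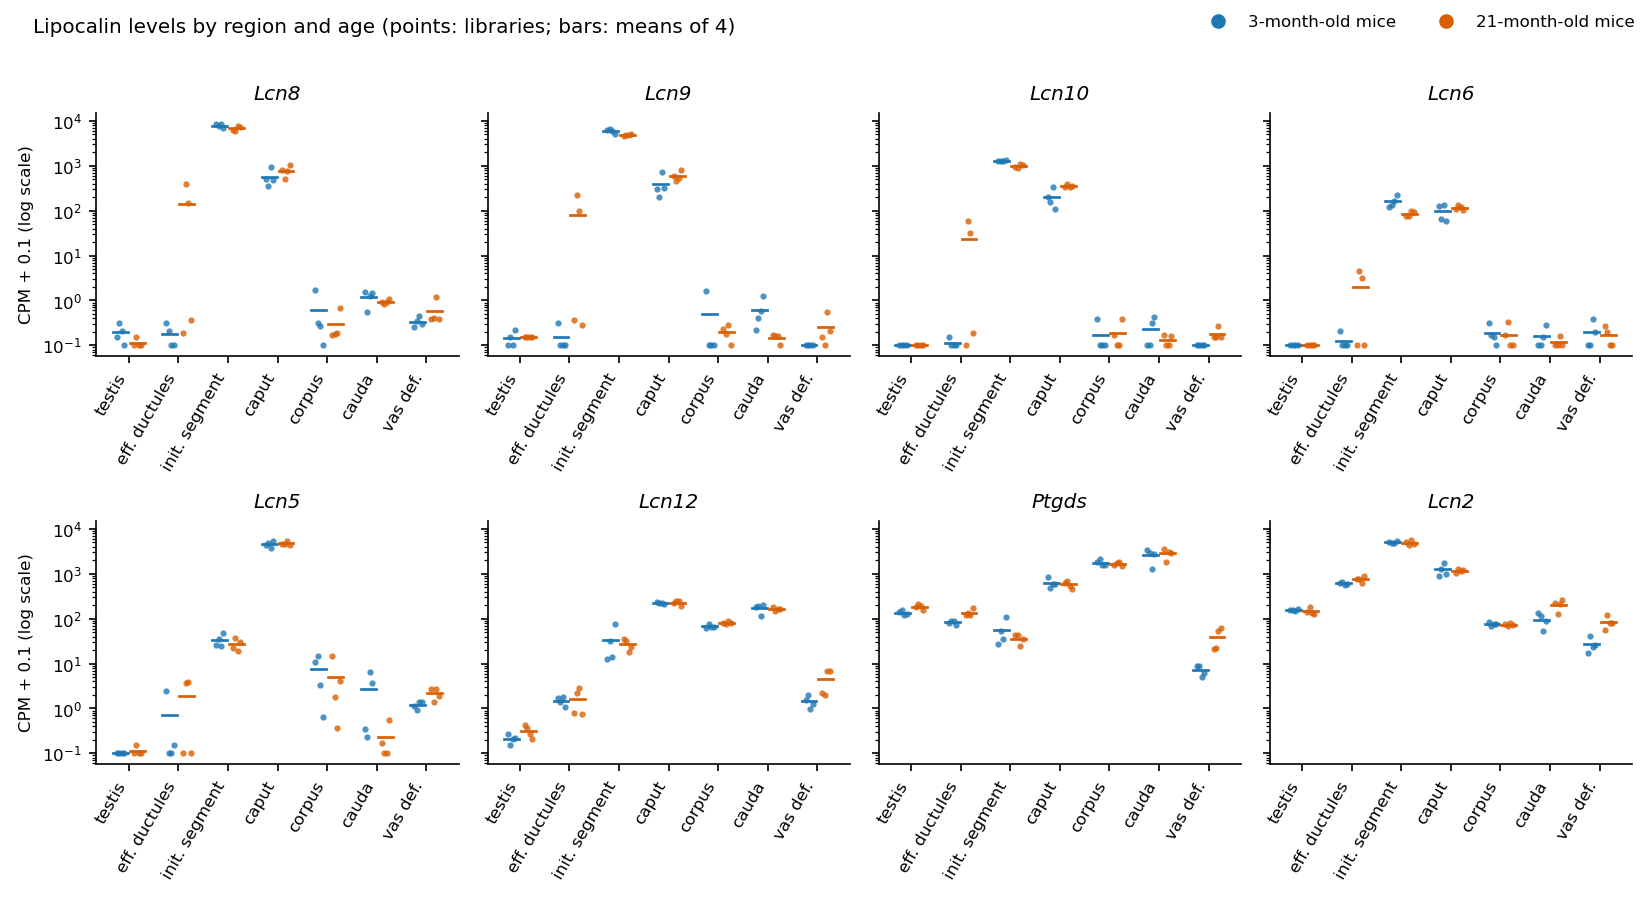
Levels of the 8 lipocalin genes in the 7 regions, as CPM with 0.1 added on a log scale, with a point for each library, a bar at the mean of 4 libraries, and blue for 3 months, orange for 21 months. Lcn8, Lcn9 and Lcn10 peak in the initial segment, Lcn5 in the caput, Ptgds in the corpus and cauda, and Lcn2 stays above 10 CPM everywhere.

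On the scale per kilobase, Lcn8 had the highest level of the set in the initial segment at 3 months (12098 CPM per kb), followed by Lcn9 (7192), Lcn2 (1945) and Lcn10 (1160). Lcn5 led in the caput (5240 CPM per kb) ahead of Lcn8 (885), Lcn2 (476) and Lcn9 (463), and Ptgds led in the corpus (1066) and the cauda (1565). In the efferent ductules Lcn2 was first (233 CPM per kb), and in the testis Ptgds was (82.3 CPM per kb). The 8 genes together took 2.02% ± 0.11 of all counts in the initial segment, 0.747% ± 0.213 in the caput and 0.266% ± 0.0877 in the cauda at 3 months. In the vas deferens they took 0.00459% ± 0.00120.

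Adjacent regions were compared in one fit over the 28 libraries of each age, which asks where along the duct the lipocalins change. At 3 months 3 of 8 members passed at an adjusted p under 0.05 (edgeR) between testis and efferent ductules, where 75.6% of all tested genes passed. The counts were 7 of 8 between efferent ductules and initial segment (43.4% of all genes), 8 of 8 between initial segment and caput (27.8%), 8 of 8 between caput and corpus (33.5%), 1 of 8 between corpus and cauda (24.4%) and 5 of 8 between cauda and vas deferens (36.4%). At 3 months the member that passed between corpus and cauda was Lcn12. Between caput and corpus 7 members were lower in the corpus and Ptgds was higher, at both ages. At 21 months the counts were 7 of 8 (74.3% of all genes), 8 of 8 (44.6%), 6 of 8 (29.7%), 8 of 8 (32.3%), 4 of 8 (26.9%) and 4 of 8 (35.1%) in the same order. Over the 6 borders this came to 32 of 48 at 3 months and 37 of 48 at 21 months (40.2% and 40.5% of all gene and border pairs). Without the 21-month efferent ductule libraries 2 and 3, described below, the count at 21 months was 33 (40.02%).

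The other 24 genes inside the cluster were of mixed kind, and 21 of them reached 1 CPM in some group. By their highest mean at 3 months, 7 of those 21 were genes of the testis, 3 of the efferent ductules, 7 of the initial segment, 3 of the caput and 1 of the corpus. Between Lcn10 and Lcn11 lay 5 genes, each with its highest mean in the initial segment. The lipocalin genes Obp2a, Obp2b and Lcn3 stood there at 56.8, 4.88 and 1.496 CPM, the antisense gene A230005M16Rik at 28.2 CPM and Bmyc, a relative of the Myc genes, at 256 CPM. A230005M16Rik and Bmyc overlap on opposite strands, and since the strand setting of the counting is not given in the sources used here, their reads may not be told apart. Fbxw5, an F-box gene between Lcn12 and Lcn8, was highest in the testis (321 CPM) and overlaps C8g on the opposite strand, and Rabl6 was measured in all regions. Lcn11, a lipocalin gene between Lcn10 and Lcn9, reached no more than 0.153 CPM in any group, so neighbours of the same family inside the cluster differed in level.

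**Figure D2:**
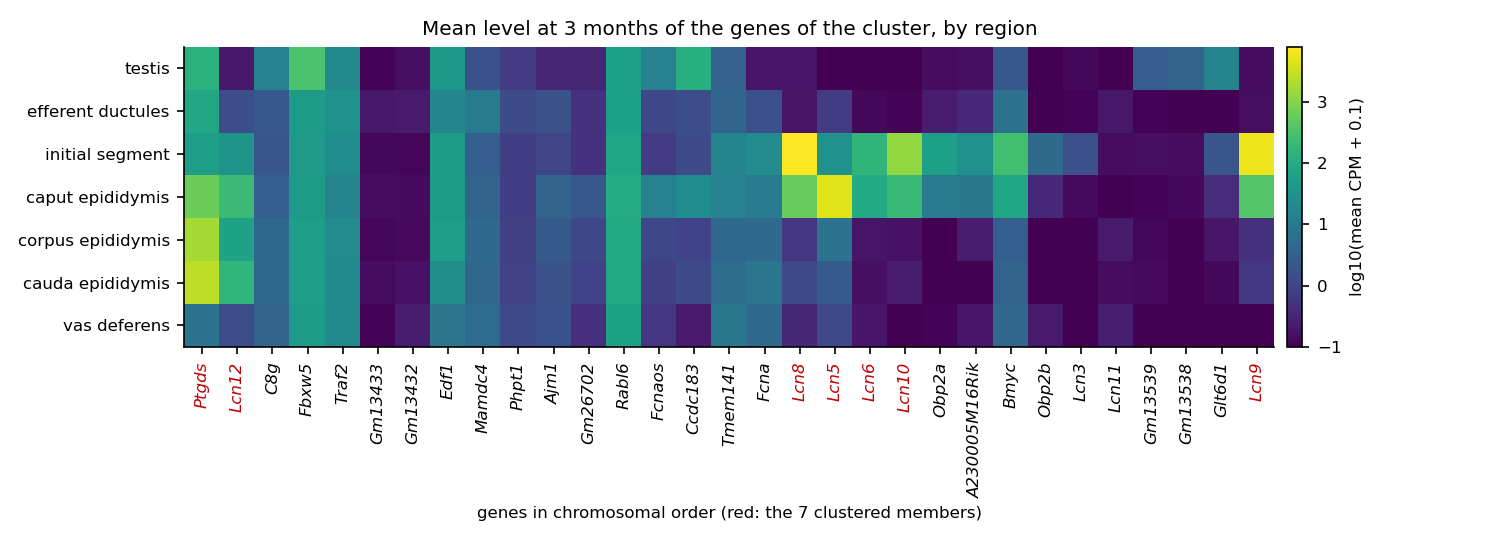
Mean level at 3 months of the 31 genes of the cluster, in chromosomal order from left to right, in the 7 regions from top to bottom, with colour for log10 of the mean CPM plus 0.1 and red names for the 7 clustered lipocalins of the set. Bright cells for Lcn8, Lcn10 and Lcn9 sit in the initial segment row, for Lcn5 in the caput row and for Ptgds in the corpus and cauda rows.

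Ageing was tested within each region, 21 months against 3 months, with the 4 libraries of each age. Over the 7 regions 47 pairs of member and region could be tested, and 10 passed at an adjusted p under 0.05, 9 of them higher and 1 lower at 21 months, against 6.27% of all gene and region pairs called and 3.31% higher. A log2 fold change given with age is 21 months minus 3 months, with its SE.

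In the vas deferens 3 of 7 tested members passed, all higher at 21 months, against 19.9% of all genes in either direction and 11.4% higher. Ptgds read 8.78, 8.94, 5.05 and 6.23 CPM at 3 months and 20.6, 22.7, 54.1 and 61.2 CPM at 21 months. Lcn2 read 17.5, 40.8, 23.6 and 25.5 CPM at 3 months and 55.4, 118, 79.1 and 80.2 CPM at 21 months. The ages did not overlap for either gene, as for 24.2% of all genes, and the log2 fold changes were 2.38 ± 0.36 for Ptgds (edgeR, adjusted p = 0.00176) and 1.58 ± 0.26 for Lcn2 (edgeR, adjusted p = 0.00258). Both passed in all 16 alternative settings tried for these pairs. Lcn12 read 1.43, 1.94, 0.890 and 1.17 CPM at 3 months and 2.12, 1.87, 6.64 and 6.79 CPM at 21 months, with 1 aged library inside the adult range (log2 1.62 ± 0.44, edgeR, adjusted p = 0.0272). Libraries 3 and 4 of 21 months were the high ones for both Ptgds and Lcn12.

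The same 2 vas deferens libraries were high in the 5 listed corpus and cauda markers that peaked in the corpus or cauda in these data. Their summed level was 114 and 174 CPM there, 46.1 and 51.7 CPM in the other aged libraries and 19.5 to 28.6 CPM at 3 months, against 2305 to 2702 CPM in the corpus at 3 months. Without libraries 3 and 4 (20.5% of all genes passed), Ptgds still passed (1.55 ± 0.19, edgeR, adjusted p = 0.000216), Lcn2 passed (1.67 ± 0.27, adjusted p = 0.00135) and Lcn12 did not (0.54 ± 0.32, adjusted p = 0.272). Lcn12 was also lost when library 1, 3 or 4 of 3 months or library 3 of 21 months was left out (adjusted p = 0.0677, 0.0793, 0.0791 and 0.0730). The summed neutrophil markers were 2.01 to 5.63 CPM at 3 months and 4.09 to 18.6 CPM at 21 months, and Ngp, Camp and Mmp8 were at 0 at 3 months while Ly6g and Retnlg were at 0 at both ages and Mpo was at 0 at 21 months. The 1 neutrophil marker with enough counts to be tested rose. T cell markers rose in 10 of 10 tested genes, with a summed level of 8.27 to 11.8 CPM at 3 months and 27.995 to 71.7 CPM at 21 months. B and plasma cell markers rose in 8 of 10, from 136 to 170 CPM at 3 months to 911 to 1749 CPM at 21 months. Macrophage markers rose in 4 of 10, and endothelium and smooth muscle markers rose in 4 and fell in 1 of 10. The part of these cells in the lipocalin values was not tested.

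**Figure D3:**
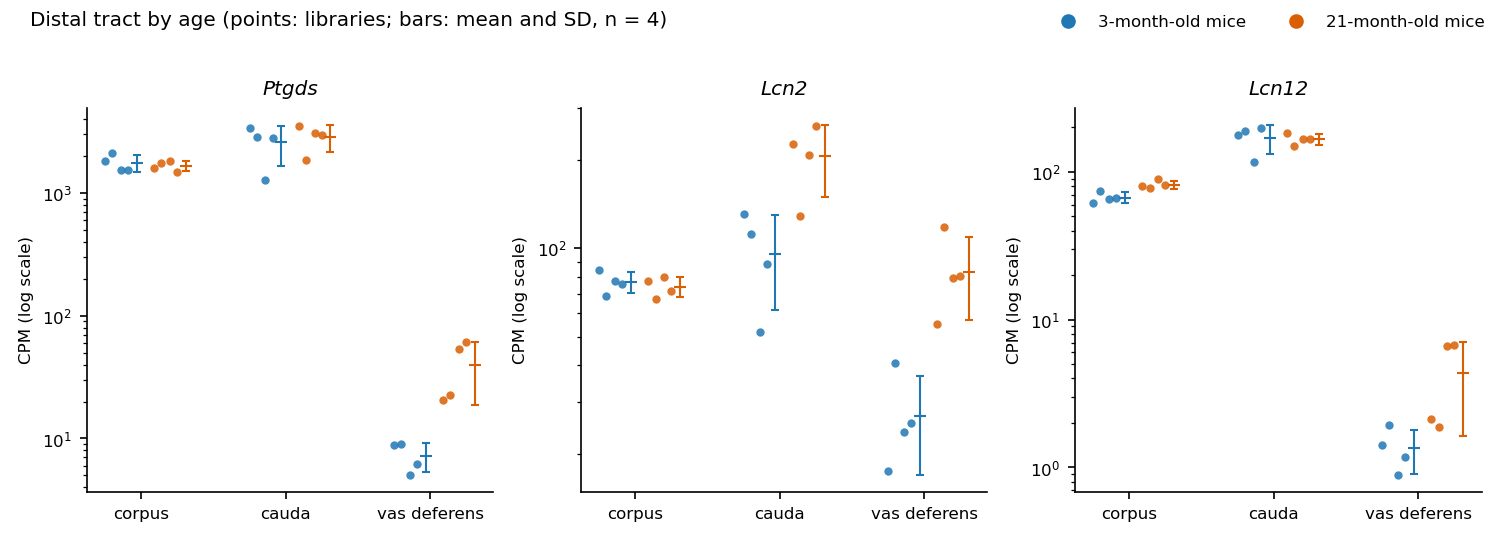
Ptgds, Lcn2 and Lcn12 in the corpus, cauda and vas deferens, in CPM on a log scale with an axis of its own for each gene, with points for libraries and bars for mean and SD of 4 libraries per age. In the vas deferens all 4 aged libraries of Ptgds (20.6 to 61.2 CPM) and Lcn2 (55.4 to 118 CPM) lie above all adult libraries, and 2 aged libraries of Lcn12 lie far above the rest.

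In the cauda 0 of 7 tested members passed by edgeR, where 0.128% of all genes passed, while at an unadjusted p under 0.05 there were 3 (10.5% of all genes) and DESeq2 called 1 (1.83% of all genes). Lcn2 read 131, 112, 52.0 and 88.1 CPM at 3 months and 226, 128, 208 and 261 CPM at 21 months (a change of log2 1.12 ± 0.27, edgeR, adjusted p = 0.145). One aged library lay inside the adult range, and DESeq2 called this gene (adjusted p = 0.0114), as did a single fit over all 56 libraries (adjusted p = 0.000498). Without the macrophage-rich library of 3 months the log2 fold change was 0.94 (edgeR, adjusted p = 0.147). The summed neutrophil markers of the cauda were 10.98 to 11.7 CPM at 3 months and 14.0 to 31.0 CPM at 21 months, with Camp at 0 at both ages and Ngp, Ly6g and Mmp8 at 0 at 21 months alone. Of the neutrophil markers 0 of 6 tested passed, and their median log2 fold change was -1.07 although the sum was higher. Macrophage markers passed in 0 of 10, with a median of -1.03. B and plasma cell markers rose in 2 of 10 there, with sums of 181 to 200 CPM at 3 months and 219 to 524 CPM at 21 months, and the part of these cells in the Lcn2 values was not tested. Ptgds stood at 2581 ± 907 and 2860 ± 717 CPM in the cauda and at 1757 ± 267 and 1664 ± 156 CPM in the corpus, with overlapping ages in both. The 2 other cauda genes with an unadjusted p under 0.05 were Lcn5 and Lcn9, with means of 2.58 and 0.517 CPM at 3 months and 0.131 and 0.0483 CPM at 21 months. Lcn9 was the only member of the cauda whose ages did not overlap, as in 8.02% of all genes.

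In the efferent ductules 5 of 8 members passed, all higher at 21 months, against 6.99% of all genes in either direction and 4.00% higher. The increase of 4 of them was carried by 2 libraries. Lcn8 read 0.0877, 401, 152 and 0.273 CPM in the 4 libraries of 21 months. Lcn9 read 0.263, 225, 101 and 0.182 CPM. Lcn10 read 0, 59.8, 31.4 and 0.0910 CPM, so that libraries 2 and 3 were high and libraries 1 and 4 near 0 for all 3 genes. Lcn6 read 0, 4.42, 3.01 and 0 CPM, and Lcn5, which did not pass, read 0, 3.54, 3.74 and 0 CPM. At 3 months the 4 libraries together held 6 counts of Lcn8, 4 of Lcn9, 1 of Lcn10 and 2 of Lcn6. The ages overlapped for all 4 genes (17.4% of all genes did not overlap), and the fitted log2 fold changes were 10.66 ± 2.37 for Lcn8 (edgeR, adjusted p = 0.0276), 10.43 ± 2.29 for Lcn9 (0.0265), 10.15 ± 2.25 for Lcn10 (0.0275) and 5.87 ± 1.54 for Lcn6 (0.0467). Such values rest on a near absence at 3 months and vary with the prior count of the fit.

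Markers of the initial segment were high in the same 2 libraries. The summed level of 8 such markers, 7 of which peaked in the initial segment, was 349 and 189 CPM in libraries 2 and 3, 31.3 and 40.6 CPM in libraries 1 and 4, and 25.5 to 38.3 CPM at 3 months. In percent of the mean of the initial segment at 21 months, libraries 2 and 3 held 5.84% and 2.21% for Lcn8, 4.62% and 2.07% for Lcn9, 5.99% and 3.14% for Lcn10 and 5.17% and 3.52% for Lcn6. The marker Adam28, a metalloprotease gene, held 3.68% and 1.86%, and the cystatin gene Cst8 held 3.58% and 1.93%. Of the 8 initial segment markers 7 could be tested with age in the efferent ductules, and 4 of them rose (57.1% against 6.99% of all genes). Lcn9 was 0.612 of Lcn8 on average in these 2 libraries and 0.714 of Lcn8 in the initial segment of the same age. The 5 caput markers that peaked in the caput summed to 5.75 and 7.61 CPM in libraries 2 and 3, 1.84 and 2.73 CPM in libraries 1 and 4, and 3.75 to 5.57 CPM at 3 months. With the other 3 listed caput genes, of which Adam7 and Defb20 peaked in the initial segment and Crisp1 in the cauda, the sum was 378 and 261 CPM in libraries 2 and 3, 3.86 and 12.1 CPM in libraries 1 and 4, and 13.5 to 29.7 CPM at 3 months. The 5 corpus and cauda markers that peaked there summed to 19.7 and 15.0 CPM in libraries 2 and 3 and to at most 1.37 CPM in the other aged and the adult libraries, and the same 5 genes stood at 399 to 466 CPM in the initial segment at 21 months. The whole list of 8, in which Gpx5 and Crisp4 peaked in the initial segment and Spag11a in the caput, summed to 574 and 151 CPM against 0.790 and 1.46 CPM, and to 0.101 to 9.18 CPM at 3 months. The sums of the listed vas deferens markers (465 and 454 against 276 and 284 CPM, and 275 to 352 CPM at 3 months) and Leydig and Sertoli cell markers (279 and 315 against 131 and 142 CPM, and 209 to 267 CPM at 3 months) were also higher in these libraries than in the other aged ones, and how the transcripts came into them was not tested. Of the vas deferens list, Upk3a, Upk1b and Actg2 peaked in the initial segment, Krt5 in the caput and Krt15 in the cauda. Of the Leydig and Sertoli list, Cyp17a1 peaked in the corpus and Sox9 in the efferent ductules. Without libraries 2 and 3, where 27.1% of all genes passed, the members that passed were Ptgds (log2 0.97 ± 0.13, edgeR, adjusted p = 0.000303) and Lcn2 (0.61 ± 0.10, adjusted p = 0.00152), and Lcn8 did not (1.23 ± 1.31, adjusted p = 0.537). The aged libraries left in that fit, 1 and 4, had 22.2% and 18.5% of their counts in the predicted gene Gm42418. Libraries 2 and 3 had 4.93% and 14.9%, and the libraries of 3 months 1.27% to 3.29%. Libraries 1 and 4 held 11442133 and 11125279 counts, and the part of Gm42418 or depth in this fit was not tested. With all libraries, the calls of Lcn8, Lcn9, Lcn10 and Lcn6 were also lost when any 1 of the 4 libraries of 3 months was left out, with adjusted p from 0.0729 to 0.144, and that of Lcn6 without library 2 or 3 of 21 months (0.0908 and 0.0791) and in DESeq2 (0.211).

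**Figure D4:**
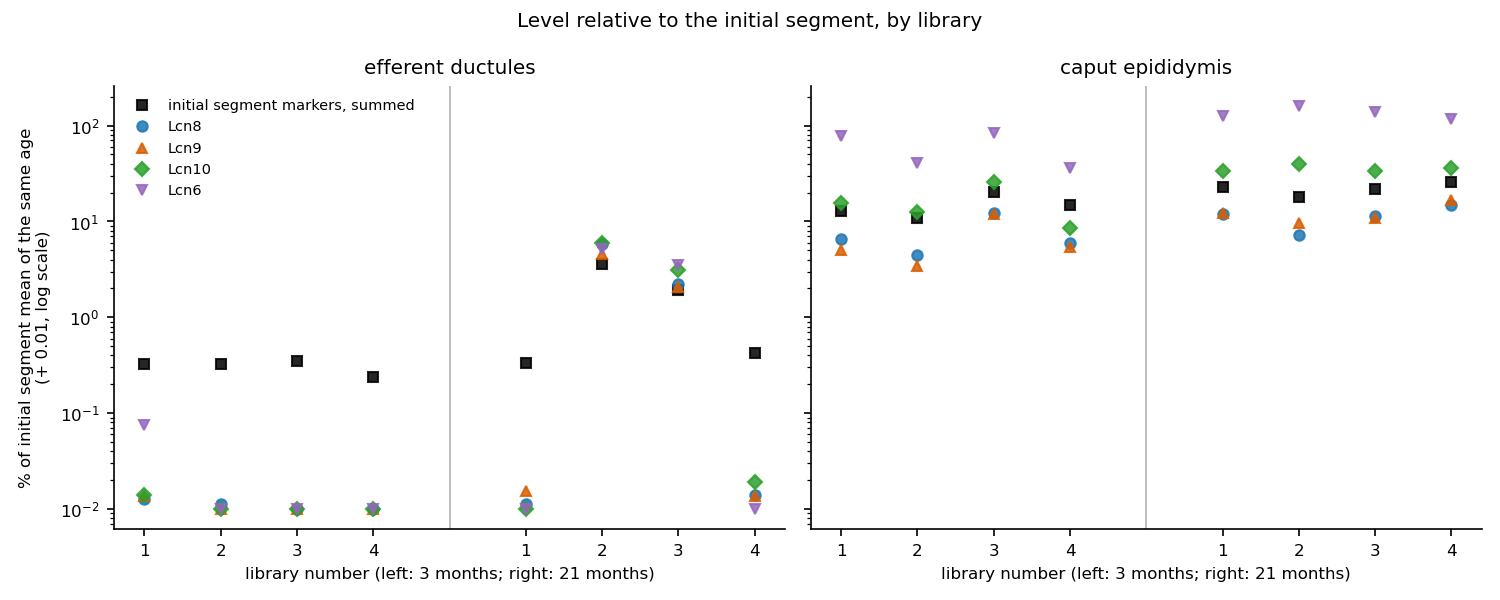
Lcn8, Lcn9, Lcn10, Lcn6 and the summed 8 initial segment markers (of which Spint4 peaked in the caput) in each efferent ductule and caput library, as percent of the initial segment mean of the same age with 0.01 added, on a log scale, with libraries 1 to 4 of 3 months left of the grey line and those of 21 months right of it. In the efferent ductules only libraries 2 and 3 of 21 months reach 2% or more for all 4 genes, and the markers are raised in the same libraries.

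Ptgds also rose in the efferent ductules, and libraries 2 and 3 were not its highest pair there. It read 79.6, 91.0, 87.0 and 71.7 CPM at 3 months and 119, 133, 122 and 173 CPM at 21 months, with no overlap (log2 0.81 ± 0.14, edgeR, adjusted p = 0.0120). The call was lost without library 1 or library 4 of 3 months (adjusted p = 0.0518 and 0.0540) and in a single fit over all 56 libraries (adjusted p = 0.101). T cell markers rose in 7, macrophage markers in 6, B and plasma cell markers in 4 and endothelium and smooth muscle markers in 2 of 10 tested genes of this region, with summed macrophage levels of 390 to 425 CPM at 3 months and 552 to 776 CPM at 21 months, and the part of these cells in the Ptgds values was not tested. Lcn2 stood at 611 ± 43.2 CPM at 3 months and 771 ± 117 CPM at 21 months (a change of log2 0.41 ± 0.15, adjusted p = 0.116), and its change shrank to 0.06 when libraries were scaled by their totals alone, a scaling under which the median of all genes in this region stood at -0.38 instead of -0.04. Under the same scaling the change of Ptgds was 0.46 (edgeR, adjusted p = 0.0441). In the testis Ptgds was the 1 of 3 tested members that passed, against 0.563% of all genes and 0.353% higher. It read 142, 158, 118 and 125 CPM at 3 months and 185, 210, 188 and 154 CPM at 21 months (a change of log2 0.44 ± 0.08, edgeR, adjusted p = 0.0111). Leydig and Sertoli cell markers rose in 1 and fell in 1 of 10, macrophage markers rose in 1 of 10, B and plasma cell markers rose in 1 of 9 and endothelium and smooth muscle markers fell in 1 of 10, and their part in the Ptgds values was not tested. The ages overlapped by 1 library on each side (6.30% of all genes did not overlap), and the call was lost without library 2 or 3 of 21 months (adjusted p = 0.0775 and 0.0565) and in a single fit over all 56 libraries (adjusted p = 1).

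In the initial segment 1 of 8 members passed, against 6.36% of all genes in either direction and 3.01% lower. Lcn6 read 124, 135, 166 and 223 CPM at 3 months and 74.7, 75.5, 96.5 and 95.3 CPM at 21 months, without overlap (18.5% of all genes). It fell by 0.79 on the log2 scale (SE 0.16, edgeR, adjusted p = 0.0102), and a single fit over all 56 libraries did not call it (adjusted p = 0.115). Lcn10 went from 1283 ± 27.5 to 999.8 ± 99.8 CPM, also without overlap (log2 -0.22 ± 0.08, adjusted p = 0.131). Lcn8 (7876 ± 748 and 6868 ± 865 CPM), Lcn9 (6034 ± 703 and 4864 ± 264 CPM) and Lcn2 (5101 ± 242 and 4935 ± 536 CPM) overlapped between ages. Library 4 of 3 months had the highest Lcn6 value and also the highest Ptgds (108 CPM against 27.3 to 52.7 CPM) and Lcn12 (77.6 CPM against 12.6 to 31.2 CPM), and the 5 caput markers that peaked in the caput summed to 668 CPM in it against 94.99 to 321 CPM in the others. Among these 5, Teddm1b, Defb15 and Rnase13 were highest in this library and Defb21 was lowest. Without this library Lcn6 still passed (log2 -0.57, adjusted p = 0.0107). Germ cell markers fell in 9 of 10 tested genes of the initial segment and endothelium and smooth muscle markers in 3 of 10, while T cell markers rose in 7 of 10, macrophage markers in 4 of 10 and B and plasma cell markers in 3 of 7, and their part in these values was not tested.

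In the caput 0 of 8 members passed by edgeR against 8.14% of all genes, 1 had an unadjusted p under 0.05 (25.0% of all genes), and DESeq2 called 1 (10.9% of all genes). That gene was Lcn10, which read 200, 160, 334 and 109 CPM at 3 months and 339, 395, 335 and 359 CPM at 21 months. All aged libraries lay above all adult ones (15.6% of all genes did not overlap), and the log2 fold change was 0.78 ± 0.24 (edgeR, adjusted p = 0.0686, and DESeq2, 0.0254). Library 3 of 3 months was the high one for Lcn8 (958 CPM against 355 to 521 CPM), Lcn9 (720 CPM against 205 to 324 CPM) and Lcn10. The 7 initial segment markers that peaked in the initial segment summed to 2158 CPM in it against 1013 to 1228 CPM in the other adult libraries, and to 1282 to 1847 CPM in the aged libraries. Library 2 of 3 months stood apart over all genes, with a chi-square per degree of freedom of 358 to 482 against each of the others and 15.8 to 52.5 among those, and with 49.7% of its counts in the predicted gene Gm42418 against 6.54% to 9.49%. Without library 2 the change of Lcn10 was 0.74 (edgeR, adjusted p = 0.131). In this region endothelium and smooth muscle markers fell in 6 of 10 and germ cell markers in 2 of 10, while T cell markers rose in 5 of 10, macrophage markers in 3 of 10 and B and plasma cell markers in 2 of 10, and their part in these values was not tested. Without library 3, Lcn10 (log2 1.12, edgeR, adjusted p = 0.00850), Lcn9 (1.06, 0.00931) and Lcn8 (0.73, 0.0482) all passed. Lcn5, the main caput lipocalin, stood at 4622 ± 692 and 4798 ± 467 CPM with overlapping ages. In the corpus 0 of 6 members passed by edgeR (2.97% of all genes), 1 had an unadjusted p under 0.05 (17.3% of all genes), and DESeq2 called 0 (4.38% of all genes). That 1 was Lcn12, at 67.1 ± 5.62 and 82.0 ± 5.0 CPM, whose ages did not overlap (8.68% of all genes, log2 0.28 ± 0.10, edgeR, adjusted p = 0.147).

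Whether ageing acted differently between regions was tested over all 56 libraries. The age effect differed between the 7 regions for 6 of 8 members, against 20.2% of all genes, and Lcn12 (edgeR, adjusted p = 0.0793) and Lcn5 (0.1004) did not pass. Lcn5 passed when all libraries numbered 1 were left out (adjusted p = 0.00740, 12.2% of all genes). Without efferent ductule libraries 2 and 3 of 21 months the count was 5 (23.7% of all genes), Ptgds, Lcn2, Lcn10, Lcn9 and Lcn12 (edgeR, adjusted p = 9.79e-06, 6.25e-06, 0.0236, 0.0240 and 0.0352), while Lcn8 (0.236) and Lcn6 (0.123) did not pass. Between adjacent regions, the age effect of Ptgds, Lcn12 and Lcn5 was higher in the vas deferens than in the cauda (6.95% of all genes passed), by 2.31 ± 0.41, 1.73 ± 0.52 and 5.13 ± 1.59 on the log2 scale (edgeR, adjusted p = 0.000243, 0.0291 and 0.0380). Without libraries 3 and 4 of 21 months the vas deferens effects of Ptgds and Lcn12 were smaller and Lcn12 did not pass there, as given above. The difference from the cauda was not tested without them. For Lcn5 neither age effect passed on its own (vas deferens 0.80 ± 0.29, adjusted p = 0.0740, and cauda -4.29 ± 1.305, adjusted p = 0.263), and its cauda mean at 3 months came mostly from library 3, the macrophage-rich one, and library 4 (6.36 and 3.57 CPM against 0.246 and 0.127 CPM). Lcn2 had the larger point value in the cauda relative to the corpus (1.16 ± 0.29, adjusted p = 0.0565, 0.381% of all genes passed), and its effects in the cauda and vas deferens were not separated (0.53 ± 0.29, adjusted p = 0.319). Between efferent ductules and initial segment Lcn8, Lcn9, Lcn10 and Lcn6 passed (2.63% of all genes), with the same 2 efferent ductule libraries as the high ones, and Ptgds did not (-1.36 ± 0.40, adjusted p = 0.0525). No member passed between testis and efferent ductules (1.06% of all genes), between initial segment and caput (6.57%) or between caput and corpus (1.84%). At an unadjusted p under 0.05 there was Lcn8 at the first of these borders, Lcn6 at the second and none at the third.

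Genes of the pathways in which lipocalins take part were counted from whole lists drawn up by function, 21 months against 3 months. Of the lipocalin receptors and iron handling genes, 3 rose and 5 fell of 17 tested in the vas deferens (47.1% of the list against 19.9% of all genes, median log2 fold change -0.04 against 0.02). Ltf, which encodes the iron-binding lactoferrin, went from 98.8 ± 18.9 to 396 ± 280 CPM there (1.94 ± 0.41, edgeR, adjusted p = 0.00887), with 147, 242, 413 and 781 CPM in the 4 aged libraries, so the highest were the 2 that stood apart in corpus and cauda markers. Slc40a1, the iron exporter ferroportin, fell from 5.20 ± 0.43 to 2.99 ± 1.14 CPM (-0.85 ± 0.23, edgeR, adjusted p = 0.0262). In the efferent ductules 3 of these genes rose and 2 fell of 17 (29.4% against 6.99% of all genes), among them Heph, a ferroxidase, from 31.7 ± 0.74 to 17.2 ± 1.40 CPM (-0.81 ± 0.10, adjusted p = 0.00502). In the caput 1 of 17 rose (5.88% against 8.14% of all genes), Slc40a1, from 5.25 ± 1.64 to 9.45 ± 2.28 CPM (0.78 ± 0.21, adjusted p = 0.0409). The highest per kilobase were Ltf in the aged cauda (555 CPM per kb) and the ferritin genes Ftl1 (235) and Fth1 (215).

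Among prostaglandin enzymes and receptors, none rose and 3 fell of 22 tested in the vas deferens (13.6% of the list against 19.9% of all genes, median log2 fold change -0.09). The receptor genes Ptgfr and Ptger3 fell from 1.39 ± 0.42 to 0.291 ± 0.255 CPM and from 8.53 ± 0.85 to 4.24 ± 1.95 CPM (-2.25 ± 0.54 and -1.07 ± 0.29, edgeR, adjusted p = 0.0152 and 0.0247). Ptger1, another prostaglandin E receptor gene, fell in the caput from 6.64 ± 1.15 to 2.38 ± 0.15 CPM (-1.52 ± 0.21, adjusted p = 0.00163) and rose in the initial segment from 3.04 ± 0.26 to 5.64 ± 0.46 CPM (1.03 ± 0.16, adjusted p = 0.00201). Over the 7 regions 4 pairs of gene and region rose and 4 fell of 146. Ptgs2, the inducible cyclooxygenase that makes the substrate of Ptgds, was highest per kilobase in the vas deferens at 21 months (939 CPM per kb), followed in the list by Hpgd (474) and Slco2a1 (197) in the vas deferens at 3 months, which degrade and carry prostaglandins.

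Retinoid pathway genes rose in 5 and fell in 0 of 21 in the vas deferens (23.8% of the list against 19.9% of all genes, median log2 fold change 0.05), in 4 and 0 of 21 in the efferent ductules (19.0% against 6.99%), and 11 rose and 4 fell of 143 pairs of gene and region. Of all gene and region pairs 6.27% were called, and 3.31% were called as higher. Lrat, which stores retinol as esters, went from 0.502 ± 0.235 to 3.11 ± 0.80 CPM in the vas deferens (2.57 ± 0.33, edgeR, adjusted p = 0.000903), and the retinoic acid carrier Crabp2 from 1.05 ± 0.49 to 4.59 ± 2.16 CPM (2.07 ± 0.40, adjusted p = 0.00561). Without the same 2 libraries the aged values were 2.40 and 3.13 CPM for Lrat and 2.51 and 3.58 CPM for Crabp2. In the caput, where Lcn5 is high, 1 rose and 3 fell of 20 (20.0% against 8.14% of all genes), the riser being Cyp26a1, which degrades retinoic acid, from 0.384 ± 0.223 to 1.75 ± 0.56 CPM (2.22 ± 0.47, adjusted p = 0.0150). Aldh1a2, which makes retinoic acid, went from 9.57 ± 2.15 to 18.8 ± 1.75 CPM in the initial segment (1.12 ± 0.14, adjusted p = 0.000508). It was the 1 of 21 called there (4.76% against 6.36% of all genes). The highest per kilobase were Aldh1a1 (354 CPM per kb in the cauda), Crabp1 (85.6) and Rdh11 (83.9).

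Of 15 other lipocalin family genes found in the table, 4 pairs of gene and region rose and 1 fell of 47, with 25.0% of the list called for the vas deferens, 16.7% for caput, 14.3% for initial segment and 11.1% for efferent ductules (19.9%, 8.14%, 6.36% and 6.99% of all genes) and none for the other regions. Apod, which encodes the lipid carrier apolipoprotein D, accounted for 3 of the 4. It went from 57.7 ± 2.19 to 281 ± 143 CPM in the efferent ductules (2.38 ± 0.34, edgeR, adjusted p = 0.00713), from 25.2 ± 6.91 to 94.4 ± 26.8 CPM in the vas deferens (1.86 ± 0.25, adjusted p = 0.00125) and from 87.9 ± 20.7 to 161 ± 13.4 CPM in the caput (0.79 ± 0.18, adjusted p = 0.0196). The 4 aged efferent ductule libraries read 435, 169, 149 and 370 CPM. The low ones were libraries 2 and 3, which stood apart in initial segment markers. Rbp4, the retinol carrier of blood, was the 1 that fell, in the vas deferens from 5.06 ± 1.23 to 2.18 ± 0.62 CPM (-1.26 ± 0.26, adjusted p = 0.00762). The highest of the list per kilobase were Apod (144 CPM per kb), Obp2a (76.4) and the complement component gene C8g (9.03).

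For each member the genes most alike over the 56 libraries were named by the Pearson correlation of log2(CPM + 1) over 13830 protein-coding genes, as a description of libraries that share regions and mice. Lcn8 and Lcn9 were closest to the beta-defensin gene Defb25 (r = 0.997 and 0.999) and then to Ly6g5b, with Adam28 next for Lcn8 and Teddm1a for Lcn9. Lcn10 was closest to Teddm1a (0.997), Defb25 and Ly6g5c, and Lcn6 to Spag11b (0.991), Muc15 and Clpsl2. Lcn5 was closest to Gc (0.969), the vitamin D-binding protein gene, then to Spink12 and Fut1. Lcn12 was closest to Wfdc8 (0.976), Foxi1 and Wfdc11, Ptgds to Piga (0.941), Gng5 and Toe1, and Lcn2 to Gtf2ird1 (0.936), Ddit4l and Clec18a. Among the members, Lcn8 and Lcn9 correlated at 0.998, Lcn6 and Lcn8 at 0.968, Lcn5 and Lcn8 at 0.717, and Ptgds and Lcn12 at 0.697, while Ptgds and Lcn8 stood at -0.192.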

How the data were processed

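The authors dissected 7 regions of the tract from 4 mice per age and sequenced stranded total RNA libraries. The deposited table holds raw read counts per Ensembl gene for 56 libraries, and the submitters' processing notes name cutadapt, HISAT2, HTSeq and mm10. The strand setting of the counting is not given in the sources used here. Groups were taken from the sample labels. Of 53379 rows, 53274 were paired with a symbol.

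Counts were analysed as deposited with edgeR 4.0.16 (TMM scaling, quasi-likelihood test, Benjamini-Hochberg adjustment over all genes tested) in R 4.3.3, keeping genes with at least 10 counts over the libraries of a fit. Age was tested within each region (8 libraries), regions within each age (28 libraries) and the difference of age effects over all 56. An adjusted p under 0.05 was called. DESeq2 1.42.0, other scalings, filters and thresholds, a replicate block and leaving out libraries were the alternatives. In simulated data, 71% of genes changed 2-fold and 100% of those changed 4-fold were recovered for age in a region (25289 genes), and 21% and 100% for the age by region test (36514 genes). In that simulation every gene had the same dispersion, only well-covered genes were changed and no library stood apart. The rates do not carry over to genes of few counts or to groups with outlying libraries. p-values measure the spread between libraries. The replicate numbers were not used as pairs in the fits reported.

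The members and gene lists were chosen with earlier results of these data known. The genes named were all members, genes inside the cluster, the 3 protein-coding genes most correlated with each member (of those reaching 10 CPM in a group), and per pathway list the 3 highest genes per kilobase and the 4 largest called age changes without overlap. Levels and figures were made in Python 3.11.15.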

Additional observations from a re-analysis of the deposited data

Results flagged for a closer look

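The effect of age differed between the 7 regions for 6 members in the test of the difference itself (edgeR over all 56 libraries). The adjusted p-values were 4.10e-06 for Lcn8, 1.11e-05 for Lcn9, 1.18e-05 for Lcn2, 1.21e-05 for Ptgds, 0.000117 for Lcn10 and 0.000438 for Lcn6. For Ptgds and Lcn2 the largest rise was in the vas deferens, 2.38 ± 0.36 and 1.58 ± 0.26 on the log2 scale. For Lcn8, Lcn9, Lcn10 and Lcn6 the largest was in the efferent ductules, where libraries 2 and 3 of 21 months held 7261 and 2471 of the 9736 counts of Lcn8. Without those 2 libraries Lcn8 (0.236) and Lcn6 (0.123) no longer passed, and Lcn6 also failed when all libraries numbered 2 were left out (0.0601), while Lcn5 (0.1004 with all libraries) passed without those numbered 1 (0.00740). Dixon's test for a single library far from the other 3 marked none of 71 groups of 4, and it cannot mark groups with 2 high and 2 low libraries.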

How the results depend on the processing

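Counts of members called with age were recomputed under each alternative. In the efferent ductules (5 called) the count was 1 with the filterByExpr filter, 0 to 5 when a library was left out, and 2 without both 21-month libraries high in initial segment markers. The filterByExpr filter removed Lcn8, Lcn9, Lcn10 and Lcn6 before the test, and 1247 of 18944 genes rose and 1044 fell under it. With 1 library left out the calls over all genes ranged from 199 up and 117 down of 25441 to 1205 up and 954 down of 25695. Without both libraries 3328 genes rose and 3416 fell of 24912. In the caput (0 called) the count of members was 1 without a count filter, 2 with the replicate block, 1 with DESeq2, 1 with the study's rule (unadjusted p and 1.5-fold, 13.2% of all genes), and 0 to 3 when a library was left out. Of all genes there, 992 rose and 1606 fell of 34295 without a count filter. With the replicate block 863 rose and 1264 fell of 25322, and with DESeq2 1070 rose and 1679 fell of 25322. With 1 library left out the calls ranged from 205 up and 411 down of 24910 to 2271 up and 2930 down of 24831. In the testis (1 called) the count of members was 0 with all 56 libraries in one fit, 0 with the study's rule (2.71% of all genes), and 0 to 1 when a library was left out. Of all genes there, 8 rose and 2 fell of 36977 in the fit of all 56. With 1 library left out the calls ranged from 33 up and 26 down of 29528 to 95 up and 97 down of 29576. In the initial segment (1 called) the count of members was 0 in the fit of all 56, where 451 genes rose and 899 fell of 36977. In the cauda (0 called) the count of members was 1 with DESeq2 (1.83% of all genes), 1 in the fit of all 56 (3.48%) and 3 with the study's rule (8.30%), and in the vas deferens (3 called, 19.9% of all genes) 5 with the study's rule (17.8%), 2 with the replicate block, 2 without both libraries high in corpus and cauda markers and 2 to 4 when a library was left out. Of all genes in the vas deferens, 2336 rose and 1554 fell of 25216 with the replicate block. Without both libraries 2773 rose and 2115 fell of 23848. With 1 library left out the calls there ranged from 1921 up and 1135 down of 24907 to 2998 up and 2318 down of 24677. Apart from the members that filterByExpr removed, the cause of these changes was not tested.

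No log2 fold change with an unadjusted p under 0.05 and a mean of at least 1 CPM reversed. Of the 22 other pairs at that level, 14 changed sign in some alternative and 0 were called with the other sign. Borders called ranged from 25 to 34 of 48 at 3 months and 30 to 38 at 21 months, the lowest with a 4-fold threshold. Over the alternatives apart from that threshold, 31.8% to 50.3% of all gene and border pairs passed at 3 months. At 21 months it was 31.7% to 50.7% of them. Same-numbered libraries of the 2 ages, which come from different mice, had a mean correlation of 0.0287. Across regions every pair was over 0.1 in 1 of 42 comparisons, corpus and cauda at 3 months (lowest 0.121, mean 0.163), where the replicate block changed no call (Lcn12 adjusted p = 0.00117, Ptgds 0.241). With the replicate block, Lcn10 and Lcn9 in the caput were called (adjusted p = 0.00956 and 0.0475), and Lcn6 in the efferent ductules (0.0808) and Lcn12 in the vas deferens (0.0661) were not. Genes at or under a few counts could not be compared at this depth.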
